A study of Mus musculus with 15 samples.

Results

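Collagens are the main structural proteins of the extracellular matrix. 44 genes of the mouse brain transcriptome, of 18931 listed, carried a collagen alpha chain symbol (Col, a type number, a, a chain number) and had at least 1 read, and these 44 were taken as the collagen genes. The 15 libraries came from the brains of Kunming mice, an outbred stock, in a study of middle cerebral artery occlusion (MCAO, a model of ischemic stroke), with 3 libraries in each of 5 groups. Sham animals had the operation alone, the vehicle group had the occlusion and a vehicle, and 3 further groups had it with the treatment JA, UA or JU. The study's title names jasminoidin, a plant glycoside, combined with ursodeoxycholic acid, a bile acid, but the labels do not spell out JA, UA and JU. All 5 groups share the stock and the tissue. Sex, age, brain region, hemisphere, doses and time after occlusion are not given by the labels, and neither is whether each library is a different animal, so p-values measure the spread between these libraries, which may be technical.

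A collagen molecule is a triple helix of 3 alpha chains, which are hydroxylated, glycosylated and wound together in the endoplasmic reticulum before secretion. Fibrillar collagens form banded fibres, type IV forms the network of basement membranes, type VI forms beaded filaments, and the FACIT, multiplexin and transmembrane members sit on fibres, in vessel walls or at cell surfaces. In the healthy brain fibrillar collagen is largely restricted to meninges and large vessels, type IV collagen surrounds the capillaries, and fibrous scar after injury is made by fibroblasts and other stromal cells.

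Library totals lay between 18346180 and 20447465 counts, and a floor of 3 counts equals 0.143 to 0.166 CPM (counts scaled to a common library total with TMM factors). JU replicate 1 stood apart from all other libraries on the first principal component, at 129 against -33.7 and -0.521 for JU replicates 2 and 3. Vehicle replicate 2 lay at 84.2 against 27.1 and 29.7 for the other vehicle libraries, and JA replicate 1 lay at 25.3, next to vehicle, against -30.4 and -43.2 for JA replicates 2 and 3. The sham libraries lay between -40.4 and -39.1. Counts of genes past the threshold are therefore given with all 15 libraries and without JU replicate 1. All 44 collagen genes passed the filter on low counts, and 34 of them had a sham mean of at least 1 CPM.

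The start-site windows of 3 collagen genes that the results turn on are printed first: Col10a1, the collagen gene that passed the threshold between vehicle and sham with all libraries, Col3a1, one of the fibrillar genes highest after occlusion, and Col25a1, the collagen gene highest in sham. Each sequence is the 250 bases before the annotated start, 5′ to 3′ on the gene's strand, from RefSeq on GRCm38.p6. Capitals mark TATAAA (the core of a TATA box), CCAAT (or its reverse complement ATTGG) and GGGCGG (a GC box, or its reverse complement CCGCCC).
Col10a1, chr10:34389731-34389980, + strand: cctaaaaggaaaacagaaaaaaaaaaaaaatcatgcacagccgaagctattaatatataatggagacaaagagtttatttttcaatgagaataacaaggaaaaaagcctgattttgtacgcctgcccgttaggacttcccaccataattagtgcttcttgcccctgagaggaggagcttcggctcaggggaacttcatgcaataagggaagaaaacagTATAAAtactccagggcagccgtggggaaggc
Col3a1, chr1:45311288-45311537, + strand: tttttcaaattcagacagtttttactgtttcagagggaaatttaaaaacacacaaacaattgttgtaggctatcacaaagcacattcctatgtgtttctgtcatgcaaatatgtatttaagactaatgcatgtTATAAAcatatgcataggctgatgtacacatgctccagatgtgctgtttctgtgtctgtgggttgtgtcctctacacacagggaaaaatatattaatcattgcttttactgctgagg
Col25a1, chr3:130180595-130180844, + strand: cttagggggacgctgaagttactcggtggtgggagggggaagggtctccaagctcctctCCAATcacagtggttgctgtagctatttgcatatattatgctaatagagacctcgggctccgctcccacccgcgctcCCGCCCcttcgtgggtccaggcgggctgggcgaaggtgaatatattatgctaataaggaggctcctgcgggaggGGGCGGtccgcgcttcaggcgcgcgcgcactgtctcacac
None of the 3 windows held an exon base of the annotation. In the Col10a1 window TATAAA lay 32 bases before the start. In the Col3a1 window the same letters began 117 bases before the start. The Col25a1 window held neither orientation of TATAAA but had CCAAT at 191 and GC boxes at 114 and 40 bases before a start that lies inside the longer GENCODE gene. Of 35 collagen genes with a RefSeq window, 5 held TATAAA on either strand, against 12.37% of all 32851 windows. CCAAT was in 12 of 35, against 33.85% of all windows, and TGACTCA, an AP-1 site, in 1 of 35 (Col6a1), against 4.46%. GGGCGG was in 21 of 35, against 32.74% of all windows. Each collagen gene entered with 1 window, while the 32851 windows were not reduced to 1 per gene, so the shares are in unlike units. A match describes these letters and does not show a bound site.

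In sham brain the collagen genes together took 0.0408% to 0.0431% of all counts. After occlusion with vehicle the share was 0.0902%, 0.2594% and 0.0885% in replicates 1, 2 and 3, above every sham library. The JA libraries had 0.0780%, 0.0484% and 0.0387%, and the UA libraries 0.0421%, 0.0511% and 0.0466%. In JU replicate 1 the share was 0.5197%, the highest of the 15, while JU replicates 2 and 3 had 0.0436% and 0.0564%. Of the treated libraries, JA replicate 1 and JU replicate 1 were thus the highest.

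The make-up of the collagen messages differed as well. By FPKM, a level per transcript length, Col25a1 was first of the 44 in sham, at 10.7 ± 0.588 (SD, n = 3), followed by Col4a1 (6.16 ± 0.451), Col4a2 (5.70 ± 0.622) and Col1a2 (5.54 ± 0.550). Col25a1 encodes a transmembrane collagen of neurons. In vehicle the first 3 places went to Col1a2 (40.4 ± 34.4), Col3a1 (35.6 ± 32.6) and Col1a1 (32.1 ± 30.1), and Col25a1 was in place 9. The SDs of the vehicle levels are nearly as large as the means, since replicate 2 was far above replicates 1 and 3. Fibrillar genes made up 19.4% to 22.7% of the summed collagen FPKM in sham and 45.4%, 55.1% and 35.2% in vehicle replicates 1, 2 and 3. JA replicate 1 had 41.9% and JU replicate 1 had 62.5%, and the other 7 treated libraries had 21.4% to 28.8%. Transmembrane genes went the other way, from 17.99% to 21.2% in sham to 2.66% to 7.63% in vehicle, while the basement membrane share stayed between 16.1% and 21.8% in all 15 libraries.

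**Figure D1:**
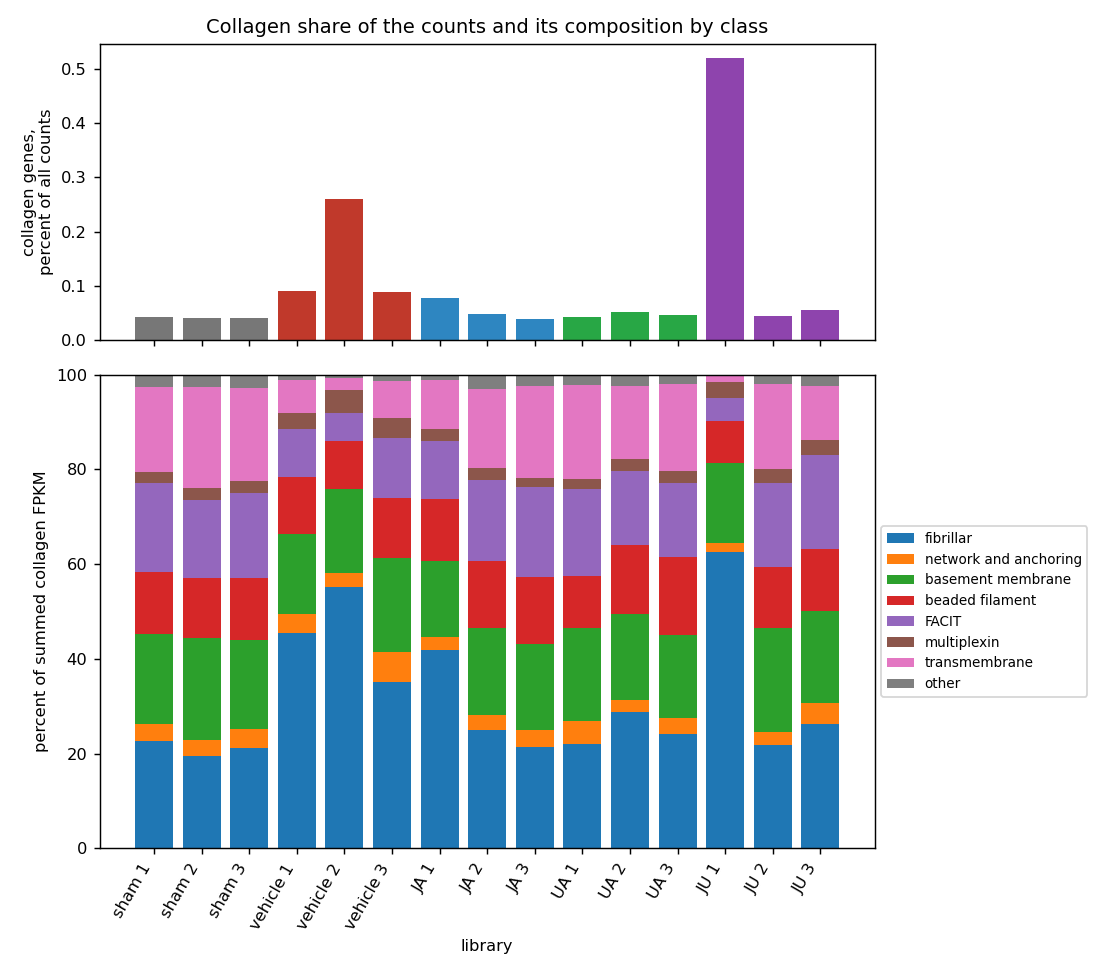
Upper bars give the percent of all counts that fell on the 44 collagen genes in each library, and lower stacked bars give the percent of the summed collagen FPKM by class. JU replicate 1 (0.5197%) and vehicle replicate 2 (0.2594%) have the tallest upper bars, and the fibrillar part of the lower bars is 62.5% and 55.1% there against 19.4% to 22.7% in sham.

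The chains of type I collagen were not in a fixed ratio. Type I molecules normally hold a pair of alpha 1 chains (Col1a1) and a single alpha 2 chain (Col1a2). The FPKM of Col1a1 over that of Col1a2 was 0.422, 0.400 and 0.401 in sham and 0.752, 0.835 and 0.668 in vehicle, a mean of 0.752 ± 0.0835 against 0.408 ± 0.0124 (SD, n = 3; two-sided exact permutation p = 0.1, the smallest that 3 against 3 libraries allow). UA libraries had 0.406, 0.451 and 0.452, all below vehicle (exact permutation p = 0.1). JA replicate 1 had 0.724 and JU replicate 1 had 0.788, inside the vehicle range, while the other JA and JU libraries lay between 0.394 and 0.518. The ratio of Col3a1, the type III chain, to Col1a2 moved in the same way, from 0.452 to 0.490 in sham to 0.793 to 0.914 in vehicle (exact permutation p = 0.1). For the basement membrane pair, Col4a1 over Col4a2 was 0.924 to 1.24 in sham and 1.27 to 1.51 in vehicle (exact permutation p = 0.1). The long type VI chain over the first, Col6a3 over Col6a1, was 0.104 ± 0.0094 in vehicle and 0.0717 ± 0.0173 in sham (SD, n = 3; exact permutation p = 0.1). The other 3 ratios computed had vehicle and sham groups that overlapped. Col6a1 over Col6a2 was 1.99 ± 0.153 in vehicle and 2.04 ± 0.34 in sham (exact permutation p = 0.8). Col5a2 over Col5a1 was 1.65 ± 0.142 in vehicle and 1.47 ± 0.308 in sham (exact permutation p = 0.5). Col4a5 over Col4a1 was 0.139 ± 0.021 in vehicle and 0.138 ± 0.0156 in sham (exact permutation p = 1.0). Col6a1 over Col6a2 was 1.49 to 1.76 in UA, below the 1.81 to 2.08 of vehicle (exact permutation p = 0.1). Col5a2 over Col5a1 was 0.877 to 1.37 in JA, below the 1.56 to 1.81 of vehicle (exact permutation p = 0.1). Every other comparison of these 3 ratios between a treated group and vehicle overlapped. The ratios were chosen after the levels were known, and no p is adjusted over them.

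Vehicle against sham compares occlusion and vehicle together with the operation alone. With all 15 libraries, 1 of 44 collagen genes was higher at an adjusted p under 0.05 in edgeR's quasi-likelihood test, Col10a1, against 0.787% of all genes tested, and 0 were lower, against 4.24%. 23 had an unadjusted p under 0.05, against 29.3% of all genes. 37 had a positive log2 fold change, against 50.5% of all genes, and 7 a negative one, with a median of 1.25 against 0.00 for all genes tested. In 25 of 44 every vehicle library was above every sham library (24.5% of all genes), and in 2, Col19a1 and Col25a1, every vehicle library was below (24.7%). Without JU replicate 1, which is in neither group but widens the shared estimate of spread, 23 were higher (17% of all genes) and 2 lower (16.9%), 30 had an unadjusted p under 0.05 (45% of all genes), and the median was 1.24. DESeq2 called 10 higher and 1 lower with all libraries. Leaving out any single sham or vehicle library from the fit of all libraries, or correcting it for GC content, left 0 calls. Shares over all genes are given for edgeR with all libraries and without JU replicate 1. Counts from every other fit, here and below, have no such share beside them and are not read as a trait of collagen genes.

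**Figure D2:**
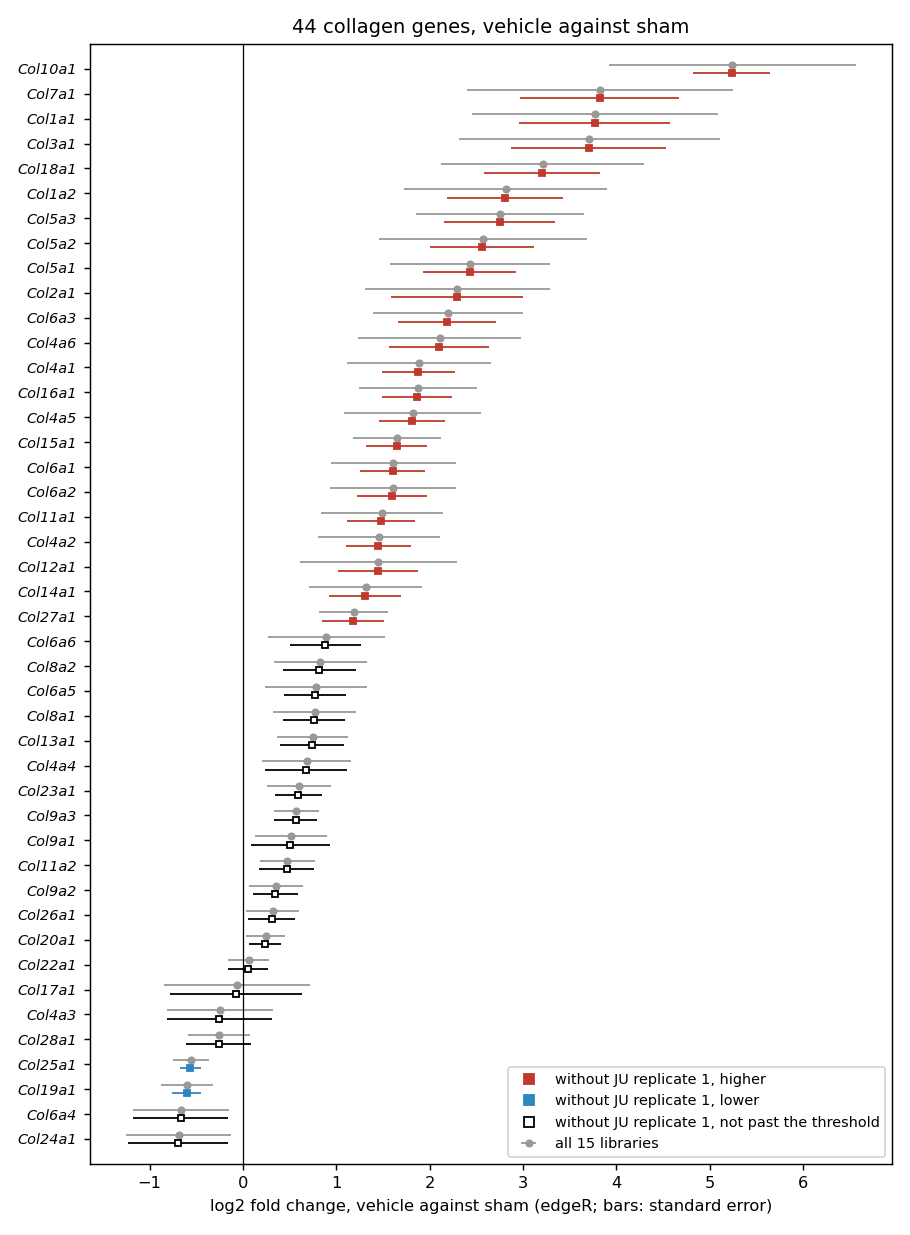
Log2 fold change of each of the 44 collagen genes in vehicle against sham, with standard errors, from edgeR with all 15 libraries (grey circles) and without JU replicate 1 (squares, filled where the adjusted p was under 0.05). The positions barely differ between the fits, the bars are shorter without JU replicate 1, and Col10a1 lies farthest to the right at 5.24.

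Col10a1 (chromosome 10, 34389981 to 34397085, + strand of GRCm38) encodes the type X chain, a short network-forming collagen known from the hypertrophic cartilage of growth plates. Its level was 0.421, 0.312 and 0.313 CPM in sham and 10.3, 16.2 and 13.7 CPM in vehicle. The vehicle libraries were close to each other and all far above sham, with a log2 fold change of 5.24 (SE 1.32, adjusted p = 0.0432), and 5.23 without JU replicate 1 (SE 0.413, adjusted p = 0.000158). JA libraries had 0.655, 0.103 and 0.552 CPM, with replicate 2 under the floor. UA libraries had 0.885, 0.938 and 1.08 CPM, above every sham library and below every vehicle library. JU replicate 1 had 14.5 CPM, inside the vehicle range, and JU replicates 2 and 3 had 0.273 and 0.197 CPM, below every sham library. When JU replicate 1 was left out, Col10a1 had the smallest p of all 15242 genes tested in vehicle against sham and in each of JA, UA and JU against vehicle, 4 comparisons that share the vehicle libraries. With all libraries it ranked 633 of 15125 in vehicle against sham, and 446, 1146 and 1724 in JA, UA and JU against vehicle. Over 18 alternative fits of vehicle against sham its adjusted p ranged from 6.9e-05 to 0.231 and was under the threshold in 9, with a log2 fold change of 4.4 to 5.52. Against vehicle, Col10a1 was under the threshold in 3 of 18 alternative fits for JA, 6 of 18 for UA and 3 of 17 for JU. The Col10a1 exons share 18 bases (0.6%) with Nt5dc1, a gene on the opposite strand, which lay at 1.74 to 2.87 CPM in sham and 2.68 to 5.64 CPM in vehicle.

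Fibrillar collagens, the largest class, had the highest count of genes higher in vehicle. As a share of the class, multiplexins had more, with 2 of 2. Without JU replicate 1, 17% of all genes tested were higher. 10 of 11 had a positive log2 fold change, with a median of 2.43, and 9 of 11 passed the threshold without JU replicate 1: Col1a1, Col1a2, Col2a1, Col3a1, Col5a1, Col5a2, Col5a3, Col11a1 and Col27a1. Of these Col2a1 rested on 150 reads over all libraries, with 0.0526, 0.104 and 0.261 CPM in sham and 0.665, 1.27 and 0.191 CPM in vehicle, so 2 sham libraries were under the floor and the groups overlapped. With all libraries the smallest adjusted p of the class was 0.0749. Col1a1 had 15.3, 11.8 and 13.4 CPM in sham and 104, 383 and 67.8 CPM in vehicle. The groups did not overlap, and replicate 2 was far above the other vehicle libraries. The log2 fold change was 3.76 without JU replicate 1 (SE 0.811, adjusted p = 0.00739) and 2.66 with vehicle replicate 2 left out instead. Col1a2 had 31.9, 26.04 and 29.6 CPM in sham and 122, 404 and 89.3 CPM in vehicle. For Col3a1, the chain of the homotrimeric type III collagen of compliant tissues, sham libraries had 16.1, 12.6 and 15.4 CPM and vehicle libraries 103, 394 and 80.1 CPM. All 3 genes had the same order of vehicle libraries, with replicate 2 first.

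Type V chains, which nucleate type I fibres and limit their width, followed. Col5a1 had 4.79, 5.16 and 4.69 CPM in sham and 15.4, 50.6 and 13.2 CPM in vehicle. Col5a3 was sparse in sham, at 0.737, 0.573 and 0.730 CPM, and reached 2.97, 8.09 and 2.82 CPM in vehicle. Their log2 fold changes without JU replicate 1 were 2.43 (SE 0.496) and 2.75 (SE 0.597). Col27a1, a fibrillar chain of cartilage, had 3.47, 3.44 and 2.24 CPM in sham and 5.32, 8.58 and 6.93 CPM in vehicle. The members that did not pass were Col11a2, at 7.24 to 14.2 CPM in sham and 10.4 to 16.5 CPM in vehicle, and Col24a1, which was near or under 1 CPM in both groups.

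Of the network and anchoring class, Col7a1 passed beside Col10a1 without JU replicate 1. Col7a1 encodes type VII collagen, the anchoring fibril of epithelial basement membranes. It had 0.368, 0.833 and 0.469 CPM in sham and 4.35, 15.9 and 3.73 CPM in vehicle, with a log2 fold change of 3.82 (SE 0.855, adjusted p = 0.00689). The type VIII chains of Descemet's membrane and vessel walls did not pass: Col8a1 had 5.21, 5.36 and 4.95 CPM in sham and 4.96, 13.4 and 8.07 CPM in vehicle. Col8a2 had 5.89, 4.84 and 6.78 CPM in sham and 5.12, 13.7 and 12.2 CPM in vehicle. In both genes vehicle replicate 1 stayed at the sham level. That library also had 24.5 CPM summed over 6 choroid plexus markers, against 1197 and 1093 CPM in vehicle replicates 2 and 3 and 368 to 889 CPM in sham, and the part of this in the type VIII values was not tested.

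The 6 type IV genes lie in 3 head-to-head pairs, and 4 of the 6 were higher in vehicle without JU replicate 1. The difference between pairs was not tested. Col4a1 and Col4a2, the chains of every vascular basement membrane, overlap by 22 bases at their starts on chromosome 8. Col4a1 had 38.2, 44.01 and 41.2 CPM in sham and 84.3, 270 and 101 CPM in vehicle (log2 fold change 1.88, SE 0.392, adjusted p = 0.00602 without JU replicate 1). Col4a2 had 40.3, 38.6 and 32.5 CPM in sham and 64.7, 176 and 65.5 CPM in vehicle (1.45, SE 0.344). Col4a5 and Col4a6, whose genes lie 1308 bases apart on chromosome X, had log2 fold changes of 1.81 (SE 0.351) and 2.10 (SE 0.531), and both passed without JU replicate 1. Col4a3 and Col4a4, the chains of the glomerular basement membrane, lie 71 bases apart on chromosome 1, and neither passed, at -0.25 (SE 0.559) and 0.67 (SE 0.442). Both were low, at 0.73 to 1.74 CPM in sham. 563 exon bases of Col4a3 (5.6%) are shared with C430014B12Rik on the opposite strand, and the strand setting of the counting is not given.

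Of the 6 beaded filament collagens, 5 had a positive log2 fold change and 3 passed the threshold. Col6a1, Col6a2 and Col6a3, which assemble into type VI collagen of interstitial matrix, were the 3 that passed without JU replicate 1. Col6a1 had 20.2, 21.3 and 21.7 CPM in sham and 43.6, 106 and 43.3 CPM in vehicle (1.6, SE 0.346, adjusted p = 0.00663). Col6a2 had 18.6, 14.1 and 15.1 CPM in sham and 31.8, 77.3 and 36.1 CPM in vehicle. Sham levels of Col6a3 were 5.05, 3.59 and 3.65 CPM and vehicle levels 11.2, 32.8 and 12.2 CPM. Col6a4, Col6a5 and Col6a6 did not pass, with log2 fold changes of -0.67 (SE 0.505), 0.77 (SE 0.331) and 0.88 (SE 0.380). Col6a5 had 1.31, 0.938 and 0.886 CPM in sham and 1.38, 2.35 and 1.67 CPM in vehicle, with every vehicle library above sham. Whether these chains changed less than the first 3 was not tested.

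FACIT collagens, which bind to the surface of fibres, moved in both directions. Of 9 genes, 3 were higher and 1 lower without JU replicate 1. Col16a1 had 7.0, 8.02 and 7.30 CPM in sham and 18.3, 41.2 and 22.1 CPM in vehicle (1.86, SE 0.375, adjusted p = 0.00452). Col12a1, found in dense connective tissue, had 12.5, 10.3 and 12.8 CPM in sham and 19.1, 55.8 and 22.3 CPM in vehicle (1.44, SE 0.426, adjusted p = 0.0242). Col14a1, its close relative, had a log2 fold change of 1.31 (SE 0.388). Col19a1, which is expressed by interneurons, had 17.2, 17.4 and 17.9 CPM in sham and 11.6, 8.78 and 14.3 CPM in vehicle (-0.61, SE 0.159, adjusted p = 0.0121). The type IX chains Col9a1, Col9a2 and Col9a3 and also Col20a1 and Col22a1 did not pass. The log2 fold change of Col9a3 was 0.56 (SE 0.232), with 234 exon bases (6.1%) shared with Tcfl5 on the opposite strand.

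Both multiplexins, collagens of vascular and epithelial basement membranes, passed without JU replicate 1. Col18a1, the source of endostatin, had 5.58, 6.93 and 6.10 CPM in sham and 25.4, 121 and 25.5 CPM in vehicle (3.20, SE 0.624, adjusted p = 0.00466). Vehicle replicate 2 was again far above the others, and without it the log2 fold change was 2.03. Col15a1 was more even across vehicle, with 4.31, 3.80 and 4.54 CPM in sham and 7.83, 17.7 and 14.3 CPM in vehicle (1.64, SE 0.329, adjusted p = 0.00386).

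Among the transmembrane collagens, Col25a1 was lower in vehicle. Its product, also called CLAC-P, is a neuronal membrane protein found in amyloid plaques. Sham libraries had 85.1, 93.5 and 85.8 CPM and vehicle libraries 66.2, 49.2 and 63.9 CPM, with no overlap (-0.57, SE 0.114, adjusted p = 0.00384 without JU replicate 1, 0.0953 with it). Col23a1 had 12.4, 12.4 and 14.03 CPM in sham and 12.2, 29.5 and 16.96 CPM in vehicle, and the groups overlapped. Col13a1 and Col17a1 did not pass. Nor did the remaining genes Col26a1, at 6.16, 6.09 and 6.62 CPM in sham and 5.68, 10.4 and 7.41 CPM in vehicle, and Col28a1, at 1.10, 0.937 and 0.834 CPM in sham and 0.665, 0.736 and 1.0 CPM in vehicle.

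**Figure D3:**
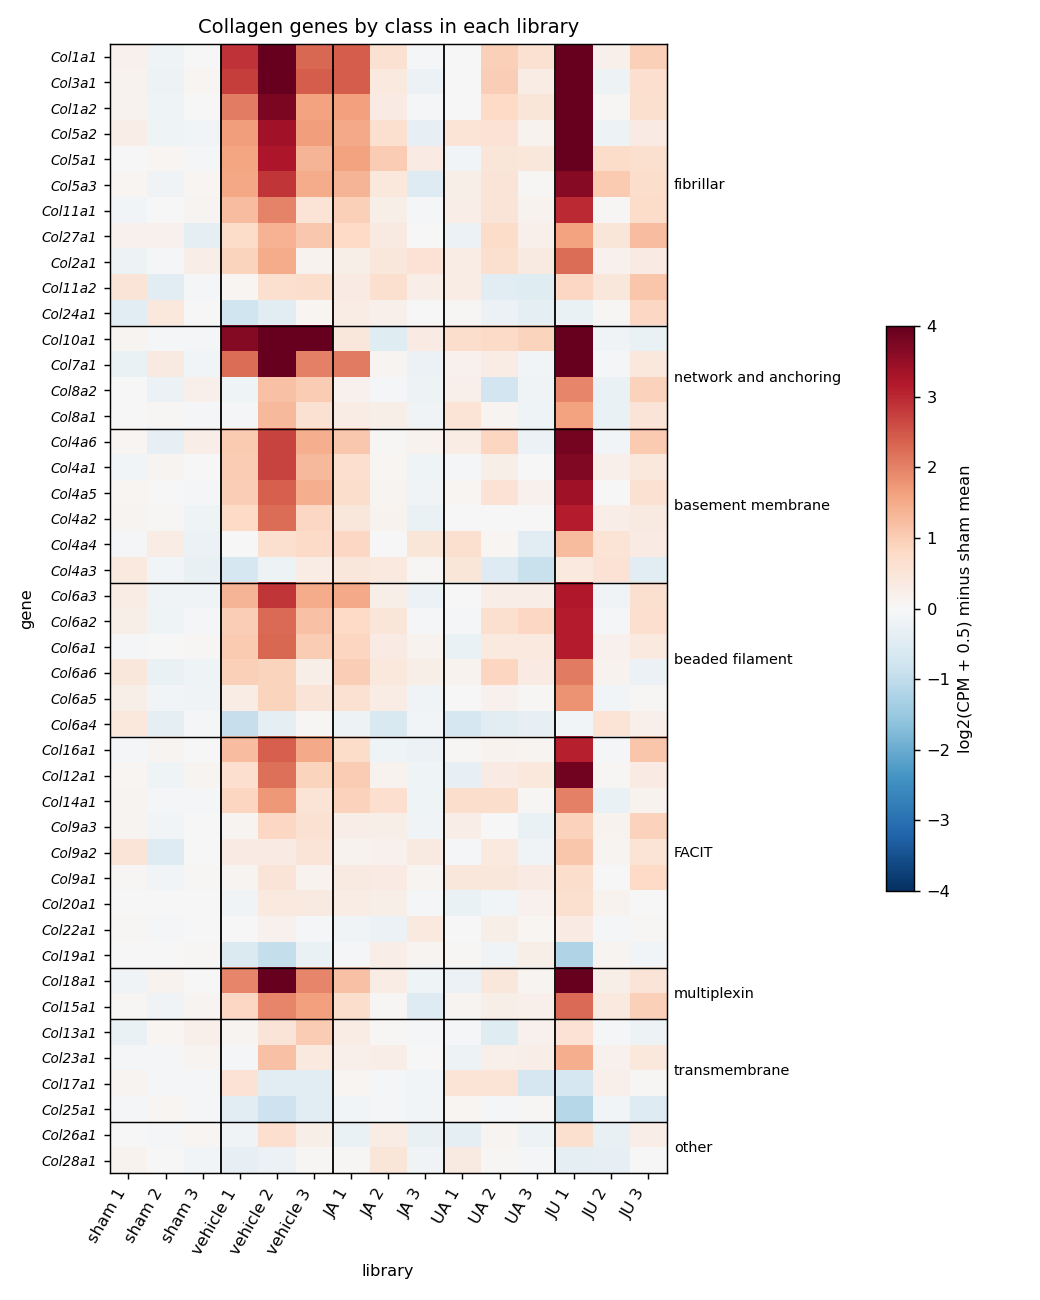
Each cell shows log2(CPM + 0.5) of 1 collagen gene in 1 library minus the mean of the sham libraries, with genes grouped by class and colours saturating at 4 in either direction. Vehicle replicate 2 and JU replicate 1 are the reddest columns, JA replicate 1 is red for fibrillar genes and pale for Col10a1, and Col19a1 and Col25a1 are blue in the vehicle columns and in JU replicate 1.

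JA against vehicle gave 0 of 44 genes past the threshold in edgeR with all libraries (1.49% of all genes higher, 0.0727% lower), with 6 at an unadjusted p under 0.05 (18.8% of all genes) and 1 called by DESeq2. 36 of 44 log2 fold changes were negative and 8 positive, against 49.3% positive over all genes, with a median of -0.80. Every JA library was below every vehicle library in 11 genes (15.7% of all genes) and above in 2 (17.6%). Without JU replicate 1, 11 were lower (7.76% of all genes) and 2 higher (11.3%). The lower genes were Col10a1 (-4.92, SE 0.402, adjusted p = 0.000242), Col18a1 (-2.63, SE 0.603), Col15a1 (-1.47, SE 0.326), Col16a1 (-1.68, SE 0.371), Col4a1, Col4a2, Col4a5, Col5a2, Col5a3, Col1a2 and Col6a1. The higher genes were the neuronal Col19a1 (0.73, SE 0.159) and Col25a1 (0.47, SE 0.114). Col1a1 did not pass, at -2.35 (SE 0.750, adjusted p = 0.053). With JA replicate 1 left out too, an alternative chosen after seeing the data, 20 were lower and 2 higher (share over all genes not given). With JU replicate 1 left out and a correction for GC content, 1 was lower and 0 higher.

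JA replicate 1 had vehicle-like levels of part of the family. Of the 23 collagen genes higher in vehicle without JU replicate 1, 12 lay inside or above the vehicle range in JA replicate 1, against 2 and 1 in JA replicates 2 and 3. These 23 were chosen by their vehicle levels, and the same share over all genes higher in vehicle was not computed. JA replicate 1 also lay next to vehicle on the first principal component of all genes tested, at 25.3. Whether the count is particular to collagen genes was not tested. Col1a1 had 74.7, 20.6 and 12.7 CPM in JA replicates 1, 2 and 3, and Col3a1 had 81.4, 19.1 and 12.3 CPM. Col1a2 had 90.9, 36.5 and 28.4 CPM and Col7a1 had 3.93, 0.617 and 0.387 CPM. The 11 genes that stayed below the vehicle range in JA replicate 1 were Col10a1, Col15a1, Col16a1, Col18a1, Col4a1, Col4a2, Col4a5, Col5a2, Col5a3, Col6a1 and Col6a2. Col18a1 had 14.6, 7.76 and 5.47 CPM in JA, Col4a1 65.9, 43.5 and 36.4 CPM, and Col16a1 12.7, 6.48 and 6.19 CPM. Col10a1 was the extreme case, at 0.655 CPM in the same library.

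UA against vehicle gave 0 of 44 past the threshold in edgeR with all libraries (3.12% of all genes higher, 0.35% lower), 19 at an unadjusted p under 0.05 (24.3% of all genes) and 4 calls in DESeq2. 37 of 44 log2 fold changes were negative and 7 positive, against 48.5% positive over all genes, with a median of -0.94. In 22 genes every UA library was below every vehicle library (22.2% of all genes) and in 2 above (21.7%). Without JU replicate 1, 19 were lower (13.4% of all genes) and 2 higher (14.8%). Fibrillar genes made up 7 of the 19. Col1a1 had 13.5, 26.3 and 20.95 CPM in UA (-3.18, SE 0.783, adjusted p = 0.0169), and Col3a1 had 14.8, 29.5 and 18.1 CPM (-3.20, SE 0.807, adjusted p = 0.0182). Col10a1 had -3.78 (SE 0.367, adjusted p = 0.000958), and Col18a1, with 5.14, 8.69 and 6.71 CPM, had -3.06 (SE 0.618). Col4a1, with 39.9, 48.5 and 40.9 CPM, had -1.81 (SE 0.391). Col25a1 had 92.8, 83.5 and 90.0 CPM and was higher than in vehicle by 0.58 (SE 0.114), and Col19a1 had 17.9, 15.8 and 20.7 CPM and was higher by 0.66 (SE 0.159). UA was the treated group with the narrowest collagen share of the counts, and no UA library stood with vehicle as JA replicate 1 did. JA and UA share the vehicle libraries in these comparisons, and the difference between them was not tested.

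JU against vehicle depended on JU replicate 1. With all libraries 0 of 44 passed in edgeR (0% of all genes in either direction), 0 had an unadjusted p under 0.05 (1.98% of all genes), and the median log2 fold change was 0.33, with 36 of 44 positive (58.8% of all genes). The groups overlapped in all 44 genes (2.35% of all genes had every JU library above and 1.89% below). JU replicate 1 exceeded the highest vehicle library in 35 of the 44 genes. The same share over all genes was not computed, and this library stood apart over all genes tested. Whether the count is particular to collagen genes was not tested. Col1a1 had 828, 15.5 and 26.7 CPM in JU replicates 1, 2 and 3, Col3a1 had 1010, 12.5 and 23.8 CPM, and Col12a1 had 179, 12.1 and 14.99 CPM. Col18a1 had 177, 7.38 and 8.97 CPM, Col4a1 had 538, 47.2 and 55.6 CPM, and Col7a1 had 31.2, 0.492 and 0.887 CPM. In each of these genes replicates 2 and 3 were below every vehicle library, and replicate 3 was above every sham library. Without JU replicate 1 the median was -0.96, with 34 of 44 negative, 10 positive (49.2% positive over all genes) and 28 at an unadjusted p under 0.05, against 22.1% of all genes. Both remaining JU libraries were below every vehicle library in 21 genes (21% of all genes) and above in 2 (18.2%). 1 of 44 passed, Col10a1 (-5.80, SE 0.518, adjusted p = 0.000714), and it was the single gene of 15242 lower at the threshold (0.00656%), with 0 genes higher. The library left out had 14.55 CPM of Col10a1, inside the vehicle range, against 0.273 and 0.197 CPM in JU replicates 2 and 3. The call thus depends on leaving it out. With all libraries Col10a1 did not pass and ranked 1724 of 15125 by p in JU against vehicle. In the fit without JU replicate 1, Col1a1 had -3.12 (SE 0.920) and Col3a1 had -3.40 (SE 0.965), each with an adjusted p of 0.186.

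**Figure D4:**
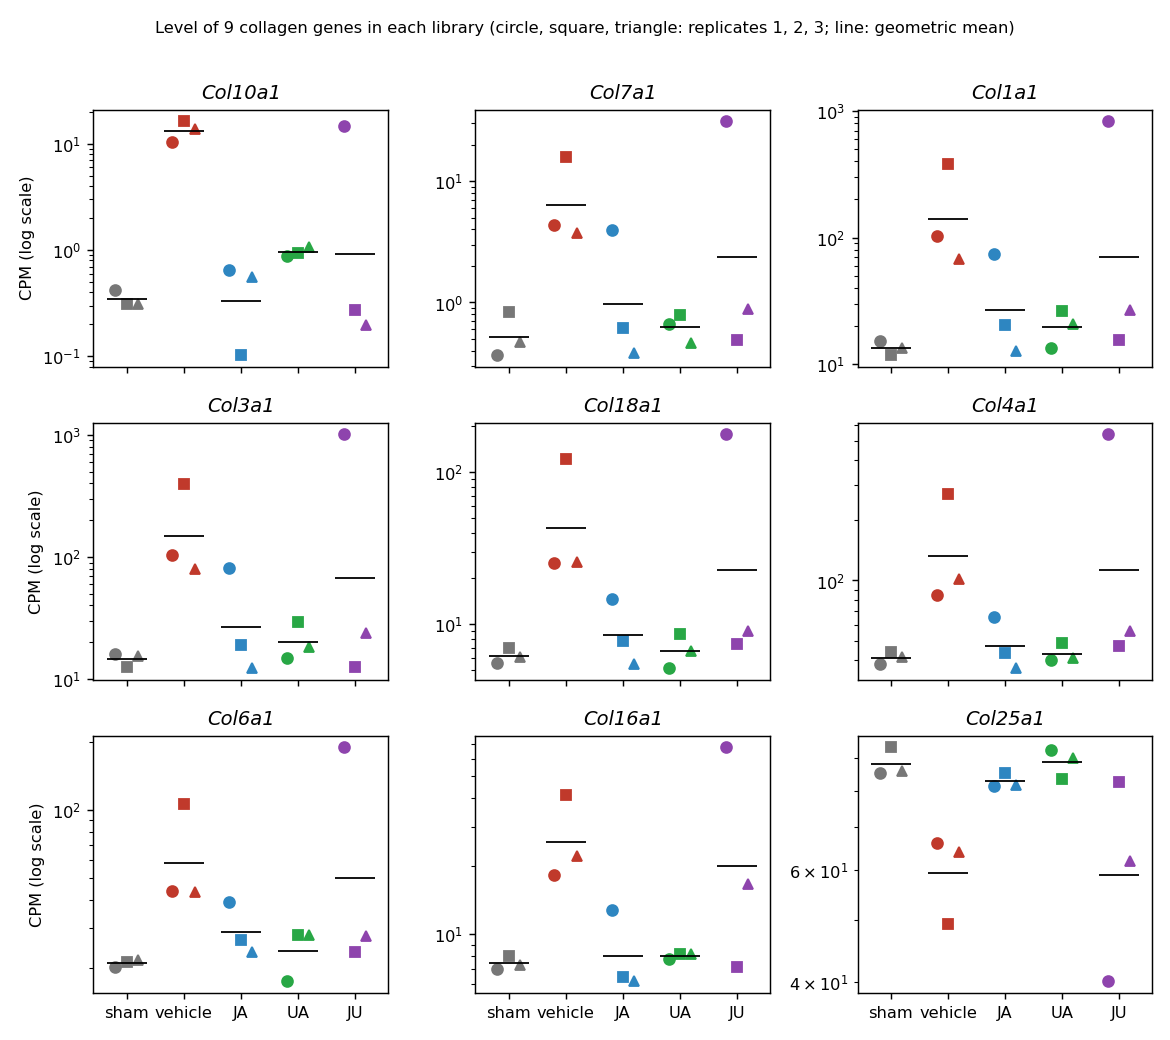
CPM on a log scale of 9 collagen genes in the 15 libraries, 1 panel a gene, with replicates 1, 2 and 3 as circle, square and triangle and the geometric mean of each group as a line. Col10a1 sets all 3 vehicle libraries and JU replicate 1 (10.3 to 16.2 CPM) apart from the other 11 (0.103 to 1.08 CPM), while in Col1a1, Col3a1 and Col7a1 JA replicate 1 also lies with vehicle.

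Between treated groups, JU was compared with JA and with UA, and JA was not compared with UA. JU against JA had 0 of 44 past it in edgeR (0% of all genes in either direction) with 20 at an unadjusted p under 0.05 (20.3% of all genes), 2 calls in DESeq2 and a median of 1.05, which became -0.07 without JU replicate 1. JU against UA had 0 of 44 (0.0992% of all genes higher, 0.985% lower) with 24 at an unadjusted p under 0.05 (27.3% of all genes), 11 calls in DESeq2 and a median of 1.26, which became 0.11 without JU replicate 1. Leaving out JU replicate 2 gave 23 higher and 1 lower in JU against UA (share over all genes not given), so this comparison turned on which JU libraries entered. Leaving out JU replicate 1 gave 0 of 44 in either direction (0.0197% of all genes higher, 0.604% lower), with 5 at an unadjusted p under 0.05 (16.7% of all genes). For Col10a1 in JU against UA, both JU libraries that remain without replicate 1 (0.273 and 0.197 CPM) were below all UA libraries (0.885 to 1.08 CPM).

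The other genes named above had the following levels in treated libraries, in CPM of replicates 1, 2 and 3. Col1a2 had 29.4, 51.4 and 40.8 in UA and 926, 30.3 and 45.5 in JU. Col5a1 had 15.8, 10.3 and 6.24 in JA, 4.48, 6.96 and 6.81 in UA and 88.1, 8.41 and 7.89 in JU, and Col5a3 had 2.52, 1.08 and 0.331 in JA, 0.885, 1.19 and 0.717 in UA and 14.2, 1.91 and 1.43 in JU. In both type V genes JU replicate 1 was highest and JA replicate 1 next. Col6a1 had 39.1, 26.5 and 23.4 in JA, 17.5, 27.9 and 27.9 in UA and 189, 23.6 and 27.8 in JU. Col6a2 had 28.04, 22.4 and 15.4 in JA, 14.98, 25.1 and 28.4 in UA and 144, 15.2 and 25.4 in JU. Col6a3, the long chain that carries the C-terminal fragment endotrophin, had 12.6, 4.83 and 3.37 in JA, 4.09, 4.99 and 4.92 in UA and 41.5, 3.61 and 6.66 in JU. Type VI levels of JA replicate 1 lay close to the lower vehicle libraries. Col4a2 had 50.3, 41.2 and 30.5 in JA, 36.7, 37.3 and 37.5 in UA and 326, 44.9 and 47.7 in JU. Col15a1 had 7.15, 4.32 and 2.82 in JA, 4.59, 4.99 and 4.92 in UA and 22.3, 5.74 and 8.63 in JU, with JU replicate 3 above the lowest vehicle library. Col12a1 had 24.5, 13 and 10.3 in JA and 9.23, 15 and 15.9 in UA. JA replicate 1 was inside the vehicle range for Col12a1 and below it for Col15a1. Col16a1 had 7.74, 8.19 and 8.14 in UA and 67.2, 7.16 and 16.6 in JU. Col7a1 had 0.663, 0.7897 and 0.461 in UA. Col27a1 had 5.54, 3.96 and 2.98 in JA, 2.49, 5.28 and 3.53 in UA and 10.1, 4.37 and 7.69 in JU. JU replicate 3 was thus near vehicle for Col16a1 and Col27a1, while JU replicate 2 was not for Col16a1. Col8a1 had 6.49, 6.22 and 4.695 in JA, 7.85, 5.63 and 4.51 in UA and 16.7, 4.26 and 7.59 in JU. Col8a2 had 6.59, 5.396 and 4.97 in JA, 6.69, 3.21 and 5.22 in UA and 23.6, 4.75 and 11.3 in JU. Col23a1, a transmembrane chain, had 14.8, 15.7 and 13.2 in JA, 11.2, 14.96 and 15.5 in UA and 35.8, 14.7 and 17.6 in JU. In these 3 genes JU replicate 1 was again the highest treated library. Col26a1, an EMI-domain collagen, had 5.13, 7.86 and 5.08 in JA, 4.64, 6.76 and 5.38 in UA and 10.1, 4.97 and 7.69 in JU. Col28a1, a relative of type VI expressed around Schwann cells, had 1.01, 1.54 and 0.829 in JA, 1.38, 0.987 and 0.922 in UA and 0.617, 0.656 and 0.986 in JU. Col25a1 had 81.5, 85.4 and 81.7 in JA, and Col19a1 had 17.1, 21.2 and 19 in JA and 7.25, 18.8 and 16.3 in JU. For these last genes JU replicate 1 was the lowest treated library in Col28a1, Col25a1 and Col19a1 and the highest in Col26a1.

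Set against sham, JA libraries were all above all sham libraries in 3 of 44 genes (7.93% of all genes), Col5a1, Col6a1 and Col9a1, and below in 0 (7.99%). UA libraries were all above in 5 (6.41%), Col2a1, Col9a1, Col10a1, Col11a1 and Col15a1, and below in 0 (6.04%). JU libraries were all above in 12 (13.9%), among them Col1a1, Col4a1, Col4a2, Col15a1 and Col18a1, and below in 1 (17%), Col25a1, with 40.1, 82.4 and 62.0 CPM. These are counts of libraries, with no test.

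The enzymes that make and cross-link collagen were followed beside the chains. The counts of these lists are to be read against all genes tested: between vehicle and sham 29.3% of them had an unadjusted p under 0.05 with all libraries, and 17% were higher at the threshold without JU replicate 1. Of 23 genes for processing in the endoplasmic reticulum and outside the cell, 0 passed between vehicle and sham with all libraries (10 at an unadjusted p under 0.05, median log2 fold change 0.71) and 14 were higher without JU replicate 1. P4ha3, a prolyl hydroxylase subunit, had a log2 fold change of 1.40 (SE 0.325), Plod1, a lysyl hydroxylase, had 1.45 (SE 0.286), and Serpinh1, the collagen chaperone HSP47, had 1.19 (SE 0.241). In JA 9 and in UA 15 of the 23 were lower than in vehicle without JU replicate 1. 5 of 6 cross-linking genes were tested, with 0 past the threshold with all libraries (4 at an unadjusted p under 0.05) and all 5 higher without JU replicate 1. Lox, the lysyl oxidase that starts cross-links, had 1.26, 0.781 and 2.56 CPM in sham and 8.85, 45.1 and 7.26 CPM in vehicle (3.72, SE 0.953). Its relative Loxl1 had a log2 fold change of 2.41 (SE 0.543). In JA 2 and in UA all 5 cross-linking genes were lower than in vehicle.

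Of 9 collagen receptors tested, 0 passed with all libraries (4 at an unadjusted p under 0.05) and 7 were higher in vehicle without JU replicate 1. Mrc2, which takes up collagen for degradation, had a log2 fold change of 1.94 (SE 0.412), and Lair1, an inhibitory receptor of leukocytes, had 2.01 (SE 0.531). In JA 2 and in UA 4 receptors were lower than in vehicle. All 19 matrix partners were higher without JU replicate 1, and 0 passed with all libraries (13 at an unadjusted p under 0.05). Fn1, fibronectin, had 70.3, 60.3 and 63.8 CPM in sham and 445, 736 and 263 CPM in vehicle (2.89, SE 0.590), and Sparc, a collagen-binding matrix protein, had a log2 fold change of 1.27 (SE 0.306). In JA 10 and in UA 16 of the 19 were lower than in vehicle. Of 12 genes of the TGF-beta axis, the main inducer of collagen genes in fibroblasts, 0 passed with all libraries (7 at an unadjusted p under 0.05), and 6 were higher and 1 lower without JU replicate 1. Tgfb1, the ligand, had 6.89, 7.55 and 6.52 CPM in sham and 27.7, 70.3 and 37.1 CPM in vehicle (2.68, SE 0.501), its receptor gene Tgfbr2 had 2.11 (SE 0.476), and Smad2, a signal transducer, had -0.24 (SE 0.0740). In JA 2 and in UA 5 of these genes were lower than in vehicle. The counts for JA and UA are from edgeR without JU replicate 1, where 7.76% of all genes were lower in JA and 13.4% in UA. With all libraries 0 genes of the 5 lists passed in either comparison. At an unadjusted p under 0.05 there were then 2 processing, 1 cross-linking, 2 receptor, 2 partner and 2 TGF-beta genes in JA (18.8% of all genes), and 6, 2, 4, 8 and 5 in UA (24.3%). In JU against vehicle 0 genes of the 5 lists passed with or without that library. Of the same lists 10, 5, 6, 15 and 4 genes had an unadjusted p under 0.05 without it, against 22.1% of all genes, and 1, 0, 0, 0 and 0 with it, against 1.98%.

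**Figure D5:**
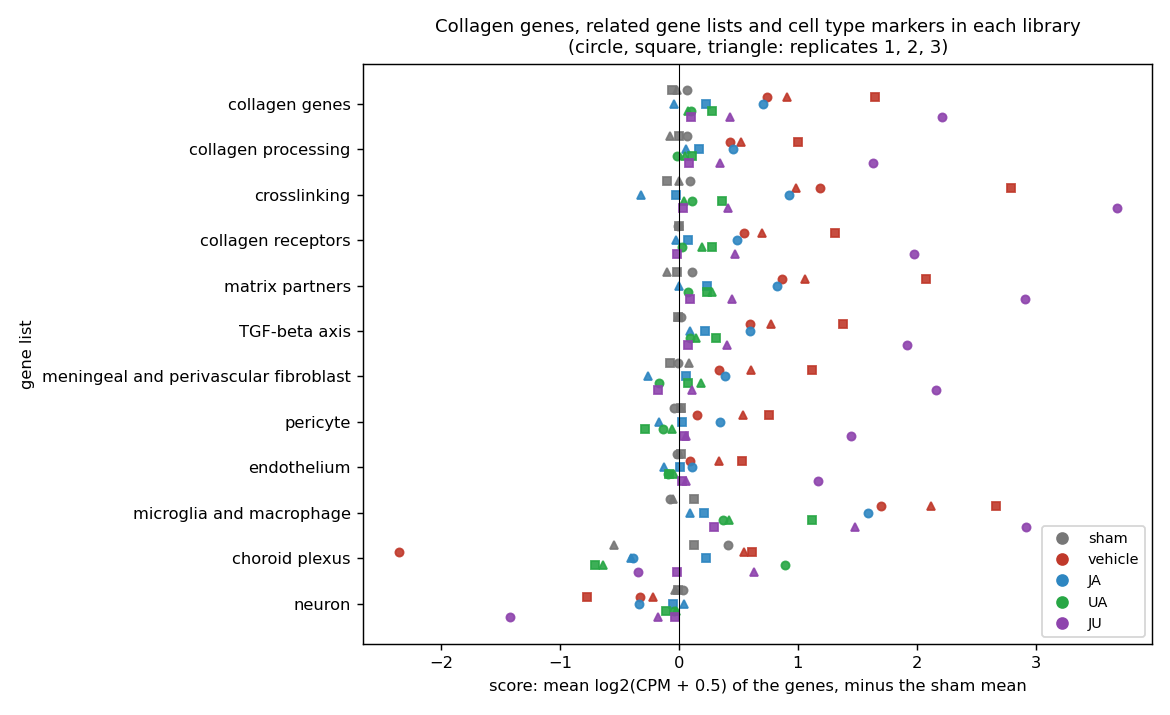
Score of each gene list in each library (mean log2(CPM + 0.5) of its genes minus the sham mean), for the collagen genes, 5 related lists and 6 cell type marker lists. JU replicate 1 and vehicle replicate 2 are farthest right in the collagen row (2.21 and 1.65) and in the related rows, and the choroid plexus row has vehicle replicate 1 far to the left at -2.35.

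Markers of cell types were measured beside the collagen genes. In bulk tissue, fewer cells of a type and less RNA per cell cannot be told apart. Between vehicle and sham 2 of 6 microglia and macrophage markers passed the threshold with all libraries, and 0 of the other 8 lists did. The counts of markers higher or lower that follow are from the fit without JU replicate 1, in which 17% of all genes were higher and 16.9% lower. The 10 meningeal and perivascular fibroblast markers summed to 293 to 338 CPM in sham, 389 to 743 CPM in vehicle, 277 to 394 CPM in JA, 327 to 349 CPM in UA and 306 to 1499 CPM in JU, with JU replicate 1 highest. 7 of the 9 tested were higher in vehicle, while with all libraries 0 of the 9 had an unadjusted p under 0.05. Dpt was at 0 counts in 1 library each of sham, JA and UA. Among them Dcn, which is also one of the matrix partners, had 38.1, 38.5 and 48.3 CPM in sham and 59.3, 120 and 72.01 CPM in vehicle. Microglia and macrophage markers summed to 253 to 289 CPM in sham and 821 to 1578 CPM in vehicle, and all 6 were higher. Astrocyte markers summed to 1449 to 1583 CPM in sham, 2443 to 4238 CPM in vehicle and 6467 CPM in JU replicate 1 (1 of 6 higher). The 1 higher was Gfap, at 169 to 219 CPM in sham, 1062 to 2579 CPM in vehicle and 4687 CPM in JU replicate 1. The other 5 did not pass, and among them Slc1a3 had 645 to 696 CPM in sham and 635 to 709 CPM in vehicle. Smooth muscle markers summed to 50.8 to 65.0 CPM in sham and 72.7 to 100.5 CPM in vehicle (2 of 5 higher), and oligodendrocyte precursor markers to 194 to 213 CPM and 258 to 290 CPM (2 of 4 higher). Pericyte markers summed to 194 to 213 CPM in sham and 206 to 348 CPM in vehicle (2 of 7 higher), and endothelial markers to 179 to 191 CPM and 192 to 254 CPM (3 of 7 higher). The vehicle sums lay above all sham sums in each of these lists but the pericyte list. Neuron markers, beside Col19a1 and Col25a1, summed to 5973 to 6280 CPM in sham and 3261 to 4954 CPM in vehicle (3 of 5 lower), and to 2056 CPM in JU replicate 1. The part of these cell types in the collagen values was not tested.

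Collagen transcripts are rich in G and C, with a median GC content of 55.4% against 50.3% for all genes tested, and 36 of 44 lie above the median of all. Libraries differed with GC content: genes of the highest GC decile deviated by 0.0785 to 0.0923 (log2) in vehicle and by -0.0777 to 0.00637 in sham. The range was -0.0516 to 0.0156 in JA, -0.0699 to -0.0422 in UA and -0.0147 to 0.14 in JU. The lowest GC decile deviated by -0.173 to -0.157 in vehicle and -0.198 to -0.0932 in JU. In sham, JA and UA it deviated by 0.0735 to 0.156, 0.0365 to 0.142 and 0.0894 to 0.145. The trend thus also lies between vehicle and each of JA and UA. With these trends corrected and JU replicate 1 left out, 23 collagen genes were higher and 2 lower in vehicle, the same counts as without the correction, and UA against vehicle had 17 lower and 2 higher. JA against vehicle changed more, from 11 lower and 2 higher without the correction to 1 lower and none higher with it. With all libraries the corrected fit left no call in vehicle against sham.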

How the data were processed

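Messenger RNA libraries of 15 brain samples were made with a stranded TruSeq kit, per the labels' protocols. The deposited table holds whole-number read counts per gene, not normalized, and the authors' FPKM values (per transcript length and depth), per the file headers. Per the submitters' processing notes, Trimmomatic, HISAT2, Cufflinks and DESeq were used, with GRCm38 (mm10). The sources used here do not give the counting tool, its strand setting or the annotation. 1 count column matched no sample and was not used.

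The collagen genes, their classes and the related lists were chosen with earlier results of these data known. Counts were tested with edgeR 4.0.16 (quasi-likelihood F test, in R 4.3.3): 1 model of all 15 libraries by group, TMM scaling, filterByExpr by group (15125 genes) and robust estimation. Adjusted p-values are Benjamini-Hochberg values over all genes tested, with a threshold of 0.05. Biological variation was 27.1%, on 10 residual degrees of freedom. Standard errors (SE) were taken as log2 fold change over root F. Alternatives included DESeq2 1.42.0, limma 3.58.1 on counts (voom) and on log2(FPKM + 0.1), other scaling, no filter, a replicate block, a GC correction and left-out libraries. The procedure was tested on simulated data with the same spread in every gene and library. That setting had no outlying library, so it does not cover the part of JU replicate 1 in the calls. Values in every library are given for genes past the threshold with all libraries, the 2 most abundant of each class and the 12 with the smallest p in vehicle against sham, and for others named after their values were seen. Positions are from GENCODE on GRCm38, which matched 18521 genes (97.83%). Floors cover counting error only.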

Additional observations from a re-analysis of the deposited data

How the results depend on the processing

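The number of collagen genes past the threshold moved with JU replicate 1, the tool and the libraries in the fit. Shares over all genes are not given for these alternatives, so the counts show how calls moved and not a trait of collagen genes. In vehicle against sham, where edgeR with all libraries called 1, DESeq2 called 11, the fit of only the 6 libraries compared 24 and the GC correction 0. In JA against vehicle (0 with all libraries) DESeq2 called 1, and in UA against vehicle (0) DESeq2 called 4, voom 1 and the fit of the groups compared 15. DESeq2 called 2 in JU against JA and 11 in JU against UA, each 0 in edgeR. With the GC correction and without JU replicate 1 the calls were 25 in vehicle against sham, 1 in JA against vehicle, 19 in UA against vehicle and 1 in JU against vehicle, and the medians were -0.97 in JU against vehicle, -0.075 in JU against JA and 0.041 in JU against UA. Without JU replicate 1 and JA replicate 1, an alternative added after seeing the data, the calls were 25, 22, 23 and 1 in the same 4 comparisons, and the medians -0.96 in JU against vehicle and 0.13 in JU against UA.

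With 1 library left out at a time, the calls ranged from 0 to 25 in vehicle against sham, 0 to 13 in JA against vehicle, 0 to 21 in UA against vehicle, 0 to 1 in JU against vehicle and 0 to 24 in JU against UA. Medians ranged from 0.80 to 1.38 in vehicle against sham, -0.97 to -0.39 in JA against vehicle, -1.08 to -0.62 in UA against vehicle, -0.96 to 0.67 in JU against vehicle, -0.075 to 1.34 in JU against JA, 0.11 to 1.49 in JU against UA.

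Replicate numbers did not pair the libraries: deviations of same-numbered libraries had a median correlation of -0.005, from -0.726 to 0.701. With a replicate block vehicle against sham had 0 calls, also with the GC correction added. Of 755 alternative values for 42 log2 fold changes of single genes, 606 kept their direction and side of the threshold. Another 140 passed it only under the alternative, and 0 reversed. The remaining 9 passed it only in the main edgeR fit (Col10a1 in vehicle against sham). Among these 9 are fits of all libraries with the GC correction or a replicate block. These 42 leave out Col10a1 in JU against JA and JU against UA, where its sign turned: over 17 alternatives each, the log2 fold change ran from -0.887 to 4.06 and from -2.03 to 2.92. Reads over all libraries were as few as 136 for Col17a1, 150 for Col2a1, 193 for Col9a1, 203 for Col6a4 and 216 for Col24a1.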
